A study of Mus musculus with 6 samples.

Results

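The proteasome genes were examined for open chromatin at their promoters in mouse kidney. They were chosen by name, as protein-coding genes of the GENCODE M39 annotation whose symbol starts with Psma, Psmb, Psmc, Psmd, Psme, Psmf or Psmg and a number, without Psmb8 and Psmb9. This gave 49 of the 21757 protein-coding genes on the autosomes, X and Y. The rule uses no measured value. The transcription start site (TSS) of each gene was that of its Ensembl canonical transcript, and a promoter counted as accessible when a called interval lay within 1 kb of it.

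The proteasome is the protease complex that degrades proteins tagged with ubiquitin. Its barrel-shaped core particle has outer rings of alpha subunits, which form the gate, and inner rings of beta subunits, some of which cut the substrate. A regulatory particle binds the barrel, recognises ubiquitin, and unfolds and feeds in the substrate with a ring of ATPases. Nearly every cell needs the constitutive subunits, while testis, thymus and immune cells make forms that replace some of them.

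The study measured chromatin accessibility by ATAC-seq, in which the transposase Tn5 inserts adapters into open DNA, on nuclei of kidney cortex. The labels give 3 WT libraries, from batches 1 and 2, and 3 libraries of mice with a tubule-specific Acly knockout (Acly cKO), from batches 4 and 5, all with the treatment Control. By the methods, Acly, the gene of ATP-citrate lyase, was deleted with Ksp-Cre (a Cdh16 promoter, active along the tubule epithelium), and controls were littermates with floxed alleles and no Cre, although the labels call them WT. The methods give an age range for mice assigned to experimental groups but do not tie it to the mice of these libraries. The values are one peak call on pooled libraries, which the list does not name, so WT and Acly cKO could not be compared, no value has a replicate error, the depth is unknown and no test was made. By the methods the study also counts WT libraries deposited earlier, and the list does not tell if these were pooled too. Batch and genotype cannot be told apart. Each value is a fold enrichment, the signal at the highest summit of the interval over the background of the peak caller, given with the summit's -log10 q, which grows with the evidence for the peak. A pooled bulk signal does not tell more open copies in few cells from fewer open copies in many.

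An interval lay within 1 kb of the TSS in 48 of the 49 proteasome genes, beside 75.8% of all protein-coding genes. When the fold enrichment had to reach 5, the count was 46 of 49, beside 66.2%. The median fold enrichment of the 48 was 38.4 (range 1.90 to 73.0), with a median -log10 q of 697. Over the 16499 protein-coding genes with an interval the medians were 30.1 and 497. The proteasome genes lay mostly in the middle of the range rather than at its top, with 2, 13, 22 and 11 of them in the 4 quartiles of those genes from lowest to highest. All 77 cytosolic ribosomal protein genes, another set of genes for a complex that nearly every cell needs, had an interval, with a median of 41.4. Of the 78 mitochondrial ribosomal protein genes, 77 had an interval, with a median of 31.9. The share of proteasome genes with an interval was thus close to that of these sets.

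**Figure D1:**
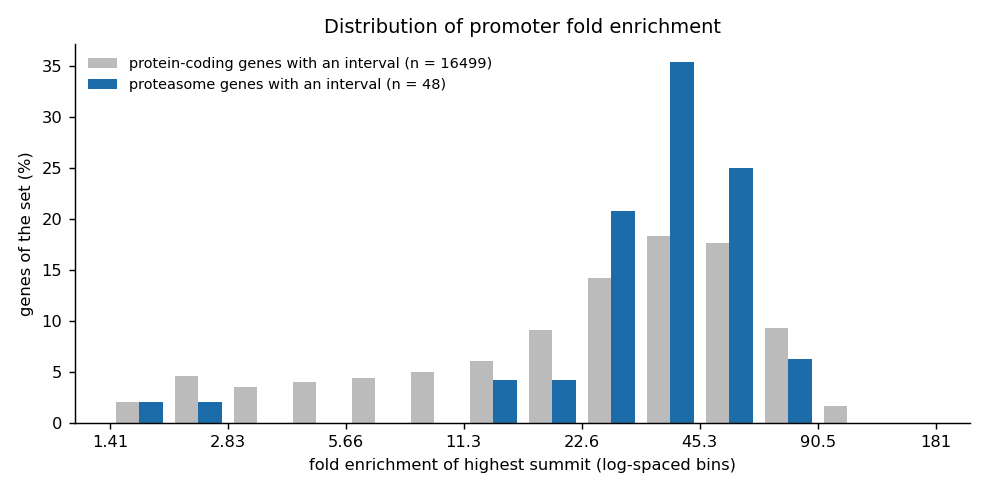
Share of genes (vertical axis, percent of the set) in log-spaced bins of promoter fold enrichment (horizontal axis), for protein-coding genes with an interval in grey and proteasome genes with an interval in blue. The bin from 32.0 to 45.3 held 17 of the 48 proteasome genes, or 35.4%, beside 18.4% of the protein-coding genes.

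The 31 constitutive subunits, 14 of the core and 17 of the regulatory particle, had an interval without exception. The share was 75.8% of all protein-coding genes. Of the 31, 25 had a CpG-rich promoter, with an observed to expected CpG ratio of at least 0.6. Among all protein-coding genes with such a promoter, 97.9% had an interval. The median of the 31 was 42.3 and their range 22.4 to 73.0. The lowest of them stood well above the testis and thymus forms, at 2.29 and 1.90. Of the constitutive subunits, 26 lay above the median of protein-coding genes with an interval (30.1), and none was in the lowest quartile. For CpG-rich protein-coding genes with an interval that median was higher, 39.2, beside 42.3 for the constitutive subunits. The core and the regulatory particle were close to each other, with medians of 43.2 and 40.5.

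**Figure D2:**
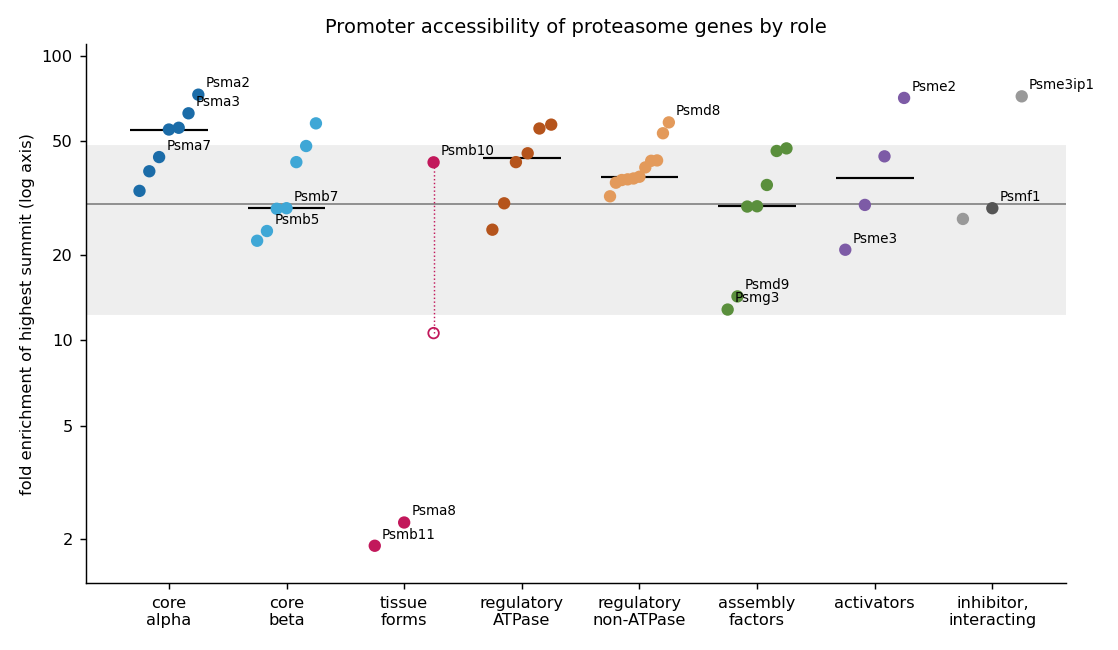
Fold enrichment of the highest summit (log axis) for each of the 48 proteasome genes with an interval, by role. Black bars are medians of the groups, the grey line and band are the median (30.1) and quartiles (12.4 and 48.3) of protein-coding genes with an interval, and the open circle is the highest summit of Psmb10 within 1 kb of its TSS (10.6). Psma8 and Psmb11 sit far below every other point.

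Among the core subunits, the alpha genes had the higher values, with a median of 55.1 (33.5 to 73.0, n = 7), beside 29.1 (22.4 to 57.9, n = 7) for the beta genes. Psma2 had the highest fold enrichment of all proteasome genes, 73.0 with a -log10 q of 1630, at a summit 107 bp before its TSS. Psma3 followed among the alpha genes with 62.8 at a summit 74 bp past the TSS. The remaining alpha genes were Psma6 (55.8), Psma5 (55.1), Psma7 (44.1), Psma4 (39.3) and Psma1 (33.5). The alpha and beta ranges overlapped, and the values within each group differed by more than 2 times.

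Psmb5, Psmb6 and Psmb7 encode the beta subunits that hold the chymotrypsin-like, caspase-like and trypsin-like active sites. Their fold enrichments were 24.2, 29.0 and 29.1. All 3 lay under the median of protein-coding genes with an interval. The non-catalytic Psmb3 (57.9), Psmb1 (48.2) and Psmb2 (42.3) were higher, and Psmb4, also without an active site, was the lowest constitutive subunit at 22.4. The highest summit of the interval of Psmb1 lay 1507 bp before its TSS, 42 bp before the nearest TSS of Tbp and 95 bp before the start of another protein-coding Psmb1 transcript. The summit 21 bp past the canonical TSS of Psmb1 had 45.0.

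The 6 ATPases of the regulatory particle, which unfold the substrate, had a median of 43.9. Their order was Psmc4 (57.3), Psmc6 (55.5), Psmc3 (45.4), Psmc2 (42.3), Psmc5 (30.3) and Psmc1 (24.5). The 11 non-ATPase subunits were the most alike of the larger groups, with a median of 37.6 and a range of 32.1 to 58.3. Psmd8, a scaffold subunit of the lid, was the highest at 58.3 (-log10 q 1217, summit 18 bp past the TSS), followed by the ubiquitin receptor Psmd4 at 53.4. Psmd14, the enzyme that removes ubiquitin chains from the substrate, had 42.9, and its partner Psmd7 had 35.8. The large base subunits Psmd1 and Psmd2 had 42.8 and 36.6. The remaining lid subunits were Psmd6 (40.5), Psmd3 (37.6), Psmd12 (37.1), Psmd11 (36.8) and Psmd13 (32.1). The interval of Psmd1 is 8597 bp wide, and its highest summit lay 4794 bp before the TSS, while the highest summit within 1 kb of the TSS had 34.4.

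The 7 assembly factors, which are not part of the finished complex, had a lower median of 29.6. Psmg1 and Psmg2, which pair as a chaperone of the alpha ring, had nearly equal values of 29.5 and 29.6. Psmg3 and Psmg4 form the other chaperone pair of the alpha ring, and theirs differed most, 12.8 for Psmg3 (-log10 q 143, summit 26 bp before the TSS) and 47.3 for Psmg4. Of the chaperones of the ATPase ring, Psmd5 had 46.3, Psmd10 had 35.2 and Psmd9 had 14.3 (-log10 q 169, summit 26 bp past the TSS). Psmd9 and Psmg3 were the lowest genes by this rule outside the testis and thymus forms.

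The activators cap the core in place of the regulatory particle. Psme2, which joins Psme1 in an interferon-inducible cap linked to antigen processing, had 71.1 with a -log10 q of 1575 at a summit 26 bp before the TSS. Psme1 had 29.9, close to the median of protein-coding genes with an interval. Their TSSs lie 12793 bp apart, and each had an interval of its own. Psme4, a nuclear activator that acts on acetylated histones, had 44.3, and Psme3, also nuclear, had 20.8 (-log10 q 296, summit 188 bp past the TSS). Psmf1, an inhibitor of the core, had 29.1. The name pattern also took Psme3ip1 (72.0, -log10 q 1602, summit 169 bp past the TSS), which binds Psme3, and Psmc3ip (26.7), a recombination factor of meiosis, neither of which is a subunit.

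Psme2b was the gene without an interval. It is a single-exon copy of Psme2, which has 11 exons, and its coding sequence was 99.3% identical to that of Psme2 over 717 aligned bases, and their proteins were identical over 239 residues. In the 2 kb around its TSS, 40.1% of the 50-base words, the length of the reads, occurred more than once in the assembly. The authors kept uniquely mapped reads, and the part of this filter in the missing interval was not tested. For the 46 other genes apart from Psma8 and Psmb11 the share ranged from 0 to 16.9%, and in the window of Psmb11 and in that of Psma8 no word was repeated.

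The testis, thymus and immune forms were then set beside the constitutive subunit that each replaces. Psma8 replaces Psma7 in spermatocytes, and its protein was 84.3% identical to Psma7, beside at most 41.1% with any other alpha subunit. Psma7 had a fold enrichment of 44.1 (-log10 q 839) at a summit 18 bp before the TSS. Psma8 had 2.29 (-log10 q 4.28) at a summit 46 bp past the TSS, in an interval of 222 bp, so that Psma7 stood 19.2 times higher. This was the single summit found within 6 kb of the Psma8 TSS. In the 300 bases from 250 before to 50 after the TSS, the observed to expected CpG ratio of Psma8 was 0.78, while over 1 kb on each side it was 0.43. Of the 9431 protein-coding promoters with a ratio of at least 0.6 in the 300-base window, 2.80% had no interval or one at or under the value of Psma8.

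Psmb11 replaces the catalytic Psmb5 in cortical thymic epithelium, and its protein matched Psmb5 at 122 of 244 aligned residues. Psmb5 had 24.2 (-log10 q 367) at a summit 19 bp before the TSS and a further summit of 13.03 at 1713 bp past it. Psmb11 had 1.90 (-log10 q 2.21) at a summit 536 bp past the TSS, and a second interval of 1.70 at 297 bp before it. Psmb5 was thus 12.8 times higher, and 1.70 is the lowest fold enrichment in the whole list. The TSSs of these genes lie 7286 bp apart on chromosome 14, on opposite strands. The CpG ratio of the Psmb11 promoter was 0.17, and 43.1% of the 12326 protein-coding promoters with a ratio under 0.6 had no interval or one at or under the value of Psmb11.

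Psmb10 replaces the catalytic Psmb7 in the immunoproteasome, and its protein was 57.9% identical to Psmb7. By the interval rule it had 42.2 (-log10 q 792), above Psmb7 with 29.1 (-log10 q 476, summit 117 bp past the TSS). The interval, chr8:106661673-106666713, covers the whole gene with 16 summits, and the highest of them lies in intron 4, 1346 bp past the TSS. Of the summits within 1 kb of the Psmb10 TSS the highest had 10.6, at 313 bp past it, and the one nearest the TSS, 15 bp past it, had 8.71. On that measure Psmb7 was the higher gene, by 2.75 times. The direction of this pair therefore depends on whether the intron summit is counted as part of the promoter.

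**Figure D3:**
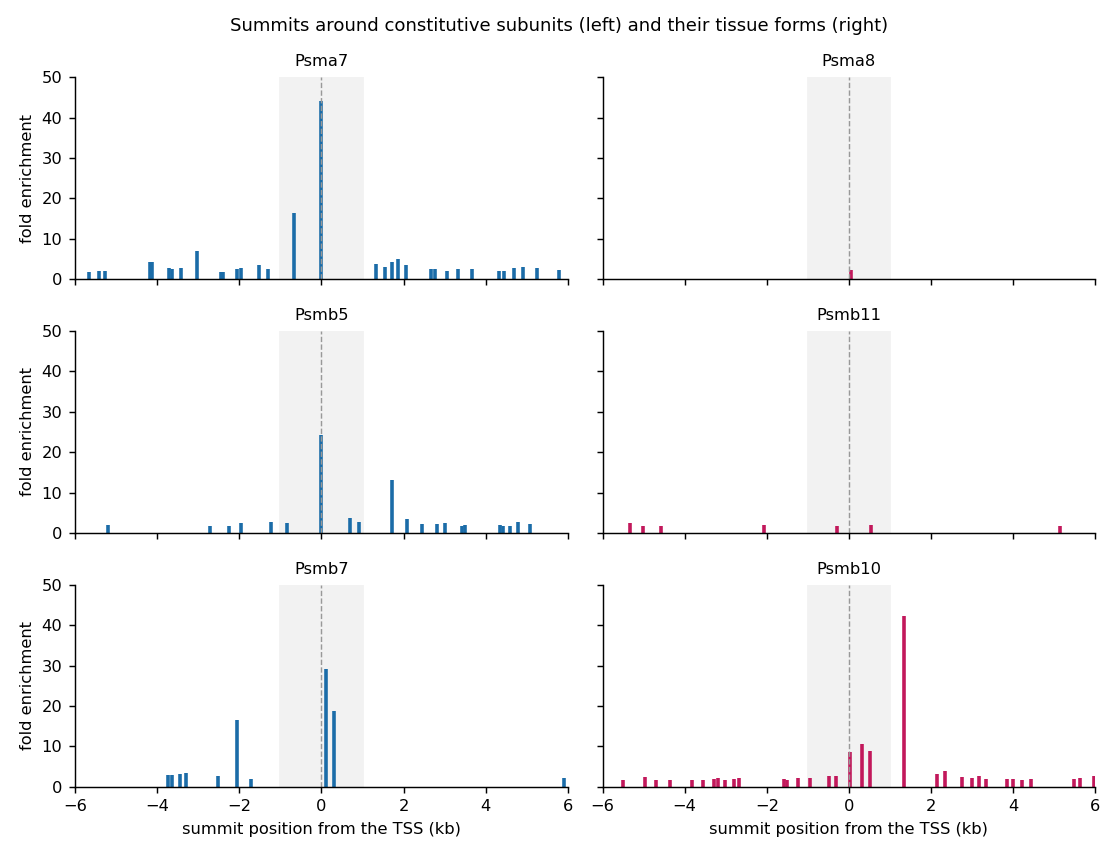
Fold enrichment (vertical axis) of each called summit by its position from the TSS in kb (horizontal axis, gene direction to the right), for Psma7, Psmb5 and Psmb7 on the left and Psma8, Psmb11 and Psmb10 on the right. The grey band marks 1 kb on each side. Psma8 shows a single summit of 2.29, Psmb11 none above 3, and Psmb10 its highest summit, 42.2, outside the band.

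The 121 bases around that intron summit are shown because it is the strongest summit of Psmb10. They lie at chr8:106663671-106663791 in GRCm39 and are printed 5′ to 3′ along the gene, on the - strand, with capitals for the letters CCGGAAG, to which ETS factors bind. The letters occur 2 times, from 30 to 24 bases before the summit and from 3 bases before to 3 bases past it. Among windows of this length around the highest summits, 1.30% of all 279569 intervals and 9.21% of the 14922 intervals that gave a protein-coding promoter its value held these letters on either strand. The annotation places the first bases of 3 other Psmb10 transcripts, none with a defined coding sequence, 61, 72 and 74 bp past this summit. This window was singled out after its values were seen.
Psmb10 intron 4: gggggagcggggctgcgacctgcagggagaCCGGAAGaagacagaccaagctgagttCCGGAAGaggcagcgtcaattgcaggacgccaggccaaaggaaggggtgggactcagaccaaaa

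The 170 bases before the TSS of Psmb10 and Psmb11 are shown for comparison with those of Psmb5 below. They lie at chr8:106665078-106665247 (- strand) and chr14:54862597-54862766 (+ strand) in GRCm39, are printed 5′ to 3′ along the gene up to the base before the TSS, and are in lower case throughout because neither holds the NFE2L1/NFE2L2 or the ETS letters. Psmb10 held none of the 9 motifs searched in its promoter window, and Psmb11 held the NF-Y letters alone.
Psmb10: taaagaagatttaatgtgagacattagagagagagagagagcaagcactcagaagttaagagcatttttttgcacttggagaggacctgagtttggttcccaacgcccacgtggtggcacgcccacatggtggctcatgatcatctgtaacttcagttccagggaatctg
Psmb11: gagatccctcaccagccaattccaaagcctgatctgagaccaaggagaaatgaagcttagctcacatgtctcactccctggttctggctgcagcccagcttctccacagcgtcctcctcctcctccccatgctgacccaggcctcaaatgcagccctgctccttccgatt

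NFE2L1 is the transcription factor known to raise proteasome gene transcription when proteasome activity falls, by binding antioxidant response elements, to which NFE2L2 also binds. The core letters searched for were TGACNNNGC, on both strands, from 250 bases before to 50 after the TSS. They occurred in 8 of 49 proteasome promoters (16.3%, Wilson 95% interval 8.51 to 29.0), beside 12.5% of all protein-coding promoters, a share inside that interval. The 8 genes were Psmb2, Psmb5, Psmb6, Psmc6, Psmd7, Psmd9, Psmd12 and Psmg2. The element was 1 bp from the highest summit in Psmb5, 24 bp in Psmb2, 31 bp in Psmb6 and 49 bp in Psmd9, while in the remaining genes the distance was 115 to 238 bp.

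Upstream sequences of 4 of these genes are shown, as the element is close to the TSS or they also hold the ETS letters. They are chr14:54855482-54855651 (- strand), chr11:70416013-70416182 (+ strand), chr5:123366083-123366252 (+ strand) and chr14:45567045-45567214 (+ strand) in GRCm39, 5′ to 3′ along the gene and ending at the base before the TSS. Capitals mark TGACNNNGC on either strand and CCGGAAG. The element starts 18 bases before the TSS in Psmb5, 9 before it in Psmb6, 31 before it in Psmd9 and 161 before it, on the other strand, in Psmc6.
Psmb5: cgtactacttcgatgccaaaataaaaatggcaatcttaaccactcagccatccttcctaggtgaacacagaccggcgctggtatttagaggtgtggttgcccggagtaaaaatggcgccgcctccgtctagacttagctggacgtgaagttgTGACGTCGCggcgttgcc
Psmb6: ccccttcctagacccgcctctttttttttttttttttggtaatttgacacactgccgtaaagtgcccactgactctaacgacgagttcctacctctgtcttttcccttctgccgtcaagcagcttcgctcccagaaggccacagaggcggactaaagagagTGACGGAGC
Psmd9: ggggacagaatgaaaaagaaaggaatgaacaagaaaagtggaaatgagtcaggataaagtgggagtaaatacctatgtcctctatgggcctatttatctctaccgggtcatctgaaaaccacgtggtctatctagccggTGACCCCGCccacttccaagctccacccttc
Psmc6: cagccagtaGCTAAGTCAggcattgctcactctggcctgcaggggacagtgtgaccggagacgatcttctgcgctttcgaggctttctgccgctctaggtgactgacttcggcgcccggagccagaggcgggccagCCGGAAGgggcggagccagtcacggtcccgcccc

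Of the 8 genes with the element, 2 had a fold enrichment above the proteasome median of 38.4, Psmc6 (55.5) and Psmb2 (42.3). The other 6 lay under it, down to Psmd9 (14.3), and the median of the 8 was 32.7. A promoter table from RefSeq held 41 of the 49 genes, and sequences were printed for genes in it. It had no entry for Psma8, Psmb1, Psmb2, Psmb7, Psmc3, Psmd3, Psmd7 and Psmg2.

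The ETS letters, CCGGAAG on either strand, showed the largest difference in percentage points between proteasome promoters and all protein-coding promoters among the 9 motifs. They occurred in 17 of 49 (34.7%, Wilson 95% interval 22.9 to 48.7), beside 10.3% of all protein-coding promoters, 12.8% of those with an interval and 18.6% of those with an interval and a CpG ratio of at least 0.6. These intervals cover counting error alone, and no test was made. The share of 18.6% is of an unlike set, because 14 of the 49 proteasome promoters had a ratio under 0.6. By role, 10 of the 17 regulatory particle genes held them, 4 of 6 ATPases and 6 of 11 non-ATPases, beside 1 of the 14 core genes. The core gene was Psma6. In the 10 regulatory particle genes the letters lay from 4 bp (Psmc6) to 94 bp (Psmd4) from the highest summit. The distance was 5 bp in Psmc2, 11 bp in Psmd7 and 14 bp in Psmd2, and longer in the rest. These distances were not set beside those of other promoters. Psma8, with a fold enrichment of 2.29, also held the letters, at 2 places 5 and 48 bp from its summit.

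**Figure D4:**
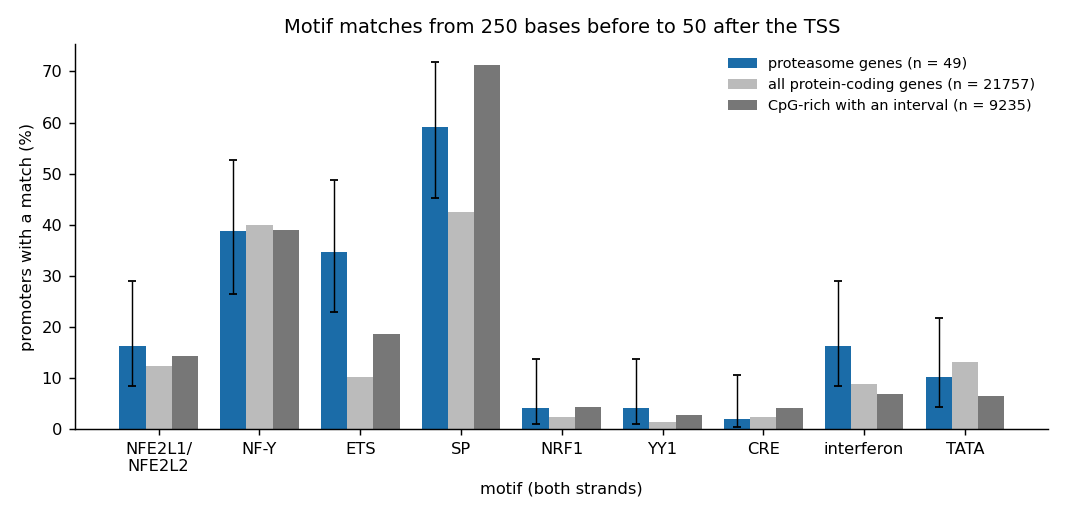
Share of promoters with a match (vertical axis, percent) for the 9 motifs searched, in the 49 proteasome genes (blue, with Wilson 95% intervals), all protein-coding genes (light grey) and CpG-rich protein-coding genes with an interval (dark grey). The ETS bar of the proteasome genes is at 34.7%, beside 10.3% and 18.6%. The 49 proteasome genes include 14 with a CpG ratio under 0.6, unlike the dark grey set.

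The other motifs differed by fewer percentage points. The SP letters GGGCGG occurred in 59.2% of the proteasome promoters, beside 42.5% of all promoters and 71.3% of CpG-rich promoters with an interval. The NF-Y letters CCAAT occurred in 38.8% beside 39.9%. The TATA box, TATAAA, occurred in 10.2% beside 13.2%. The letters of NRF1, GCGCATGCG, occurred in Psma2 and Psmg1, those of YY1, AAGATGGCG, in Psmb6 and Psmd7, and the cAMP response element, TGACGTCA, in Psmb2. The interferon element GAAANNGAA occurred in 8 promoters (16.3%, Wilson 95% interval 8.51 to 29.0), beside 8.78% of all promoters, 7.90% of those with an interval and 6.97% of those that were also CpG-rich. The share of all promoters lies inside that Wilson interval, and the other shares lie below it. As a ratio to that last set this was a larger difference than that of the ETS letters. Beside all promoters, or all those with an interval, the ETS letters had the larger ratio. The interferon element was not found in the windows of the interferon-inducible genes Psmb10, Psme1 and Psme2. Motifs overlapped each other in 4 places, in Psma8, Psmb2, Psmd9 and Psme4. Psmb10, Psmd3 and Psmf1 held none of the 9 motifs.

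Promoters rich in CpG had the higher fold enrichments over all protein-coding genes, so the proteasome genes were also set beside promoters of like content. The observed to expected CpG ratio was at least 0.6 in 35 of 49 proteasome promoters (71.4%), beside 43.3% of all protein-coding promoters. All 35 CpG-rich proteasome genes had an interval, beside 97.9% of all CpG-rich protein-coding genes. The median fold enrichments of these sets were 39.3 and 39.2. Of the 14 CpG-poor proteasome genes, 13 had an interval, beside 58.9% of all CpG-poor protein-coding genes. The median of these 13 was 37.6. Of these, 10 had a ratio between 0.4 and 0.6, where the medians of protein-coding genes with an interval were 21.7 (from 0.4 to 0.5) and 30.4 (from 0.5 to 0.6). Beside the median of protein-coding genes in the same bin of CpG ratio, 17 of the 35 CpG-rich and 10 of the 13 CpG-poor proteasome genes were higher. Psme2 was the highest of the CpG-poor proteasome genes, with a ratio of 0.48.

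**Figure D5:**
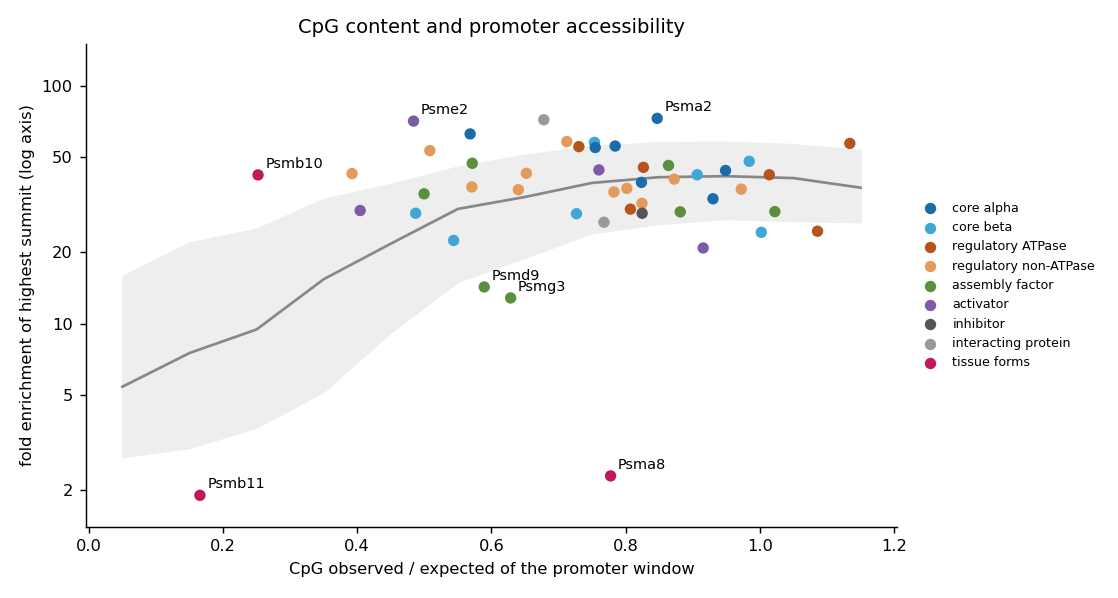
Fold enrichment of the highest summit (log axis) against the observed to expected CpG ratio of the promoter window for the 48 proteasome genes with an interval, coloured by role. The grey line and band are the median and quartiles of protein-coding genes with an interval in bins of the ratio. Psma8, at a ratio of 0.78, lies far under the band. Psmb10 lies above it by its intron 4 summit (42.2), while its highest summit within 1 kb of the TSS, 10.6 and not drawn here, would lie inside the quartiles of its bin (3.67 to 25.1).

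The summits of the proteasome genes sat close to the annotated TSS. The highest summit was within 100 bp of it in 34 of the 48 genes (70.8%), beside 50.6% of protein-coding genes with an interval, and the median distance was 37 bp, beside 98 bp. Among genes with an interval, the share within 100 bp was 61.9% for CpG-rich protein-coding genes. It was 62.3% for cytosolic and 66.2% for mitochondrial ribosomal protein genes. The highest summit of the proteasome genes lay before the TSS in 24 genes and at or past it in 24. In 3 genes, Psmb1, Psmd1 and Psmb10, it was more than 1 kb away. In width the intervals had a median of 2886 bp (216 to 10440), beside 2955 bp for protein-coding genes, and those of Psma8 and Psmb11 were the narrowest.

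Some promoters are shared with a neighbour, and their value cannot be assigned to a single gene. A protein-coding TSS on the other strand lay within 1 kb in 10 proteasome genes (20.4%), beside 8.85% of all protein-coding genes. The share was 16.8% of CpG-rich protein-coding genes, 15.6% of cytosolic and 34.6% of mitochondrial ribosomal protein genes. The 3 proteasome genes with the highest values were among the 10, Psma2 with Mrpl32, Psme3ip1 with Rspry1 and Psme2 with Rnf31. The others were Psma7 with Ss18l1, Psmc2 with Dnajc2, Psma4 with AY074887, Psmd10 with Atg4a, Psmd13 with Sirt3, Psmc5 with Ftsj3 and Psmg2 with Cep76. The interval also covered another protein-coding TSS in Psmb3 (Pcgf2), Psmb1 (Tbp) and Psmg3 (Gm26938), which made 13 genes in all. The 10 genes with an opposite-strand TSS within 1 kb had a median of 40.8 and the 38 others with an interval 37.3. Over all protein-coding genes the medians with and without such a neighbour were 46.5 and 27.6. The 49 proteasome genes lie on 16 chromosomes, with 10 of them on chromosome 11 and 6 each on chromosomes 2 and 14. Chromosome 11 holds 1618 of the 21757 protein-coding genes.

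Away from promoters the values were lower. From 3 kb before the first annotated base of a gene to its end, 290 intervals were called, of which 206 lay more than 1 kb from any protein-coding TSS. These had a median fold enrichment of 2.16, and 24 of them (11.7%), in 10 genes, reached 5. Over all protein-coding genes the 158266 intervals of this kind had a median of 2.42, and 18.4% reached 5. The strongest of each gene, for the 5 genes where it was highest, were 16.6 at 2048 bp before the TSS of Psmb7 (chr2:38535741-38538009), 16.5 within the annotated span of Psmd9 but 56353 bp before its canonical TSS (chr5:123309043-123311105), 12.6 in intron 6 of Psma6 (chr12:55461576-55463476), 11.3 in intron 3 of Psma2 (chr13:14792602-14794092) and 9.82 in intron 3 of Psme4 (chr11:30742237-30743416). Each was lower than the promoter value of its gene, with the exception of Psmd9, whose promoter had 14.3.

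Other genes of the pathway had open promoters too. All 18 genes of a list of further subunits, chaperones, shuttle factors and regulators had an interval. The share was 75.8% of all protein-coding genes and 97.9% of CpG-rich ones, and 15 of the 18 were CpG-rich. The median of the 18 was 55.3, beside 30.1 and 39.2 for the genes of those sets with an interval. Uchl5, a deubiquitinase of the regulatory particle, was the highest at 101.0, and the ubiquitin receptor Adrm1 had 67.1. Of the pathway that activates NFE2L1, Nfe2l1 itself had 68.2, Ngly1, which removes its sugars, had 67.2, and Ddi2, which cleaves it, was the lowest of the list at 27.0. Pomp, which matures the core, had 30.4. Sem1, the smallest subunit of the regulatory particle, had 49.2.

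The cell types behind the pooled signal were looked at through marker promoters. All 5 markers of the proximal tubule had an interval, with a median of 16.2 and the highest value for Lrp2, 33.1. All 3 podocyte markers had one too, with a median of 4.52. Of the thick limb and distal tubule markers, Umod had 20.8, Slc12a1 8.51 and Slc12a3 8.38. Of the collecting duct markers, Atp6v1b1 had 22.7 and Aqp2 4.19. Of the endothelial markers, Cdh5 had 4.12 and Pecam1 2.03. Of the immune cell markers, Cd74 had 25.01 and Ptprc 1.90, while Cd3e had no interval. Of 5 germ cell markers, Ddx4 and Prm1 had no interval and Dazl had 37.1, Stra8 9.62 and Sycp3 5.17. None of the immune or germ cell markers with an interval had its highest summit within 100 bp of the TSS. The share was 50.6% of protein-coding genes with an interval. Of the thymic epithelium markers, Ccl25 had 82.8, Aire 8.05 and Foxn1 3.01. These values do not count cells, and the part of any cell type in the values of Psma8, Psmb11 and Psmb10 was not tested.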

How the data were processed

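Per the labels and the methods, the authors used fastp to trim 50 bp paired-end reads, Bowtie2 2.3.4.3 for alignment to mm39, and MACS3 3.0.0 to call peaks from uniquely mapped reads without duplicates. The call used a fixed extension and a shift of the reads, which the methods print without a minus sign. How this sets the position of a summit was not tested. BEDTools 2.29.1 served to limit the deposited list to the autosomes, X and Y and to regions off the ENCODE blacklist. Roles of these tools come from the methods and versions from the submitters' processing notes. The deposited peak list holds, for each summit, the fold enrichment over background (a ratio) and the -log10 q-value, both as the authors' caller wrote them, and the summit's offset in its interval. The unfiltered summit list was not used. The list covers pooled libraries, so the depth per library and replicate errors are unknown.

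Rows were grouped into 279569 distinct intervals. Each promoter took the interval with the highest -log10 q within 1 kb of the canonical TSS of GENCODE M39 on GRCm39. All chromosome ends fitted that build. Motifs were searched in the assembly from 250 bases before to 50 after the TSS, and a base position of 0 is the TSS. Proteins were translated from the annotated transcripts and aligned globally (BLOSUM62). A CpG ratio is the observed CpG count over that expected from C and G. Scripts were tested on simulated data (Python 3.11.15, pandas 2.3.3, numpy 2.4.6, biopython 1.88, numba 0.67.0, scipy 1.17.1, matplotlib 3.10.9).

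The genes, the lists of roles, pathway genes, markers and motifs, and the comparisons were chosen with earlier results of these data known. Every gene of the name pattern was accounted for. Fuller values are given for the tissue forms and the subunits they replace, the 5 genes with the highest and the 5 with the lowest fold enrichment, genes without an interval and the strongest intervals outside promoters of 5 genes. Neighbouring genes on shared promoters were named after their values were seen.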

Additional observations from a re-analysis of the deposited data

How the results depend on the processing

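No paired analysis was possible because libraries were pooled before the peak call, and for the same reason no replicate could be left out. Of 48 alternative values, 43 stayed within 1.5 times the reported value, within the Wilson interval of a motif share, or in the same direction beside another comparison set. The limit of 1.5 times is wider than the gap to all protein-coding genes, in medians (38.4 and 30.1) and in shares with an interval (98.0% and 75.8%). Staying within it therefore does not show that these gaps held. Proteasome genes with equal fold enrichments had equal -log10 q, so the medians of both measures were not separate results. The count of proteasome genes with an interval was 48 under windows of 500 bp and 3 kb, with any protein-coding TSS and with a summit required within 1 kb, and 46 with a -log10 q above 5 or a fold enrichment of at least 5. Over all protein-coding genes the share was 74.6% at 500 bp, 79.2% at 3 kb and 75.4% with a summit required within 1 kb. It was 66.2% with a fold enrichment of at least 5, and was not computed for the other settings. The median fold enrichment stayed at 36.9 to 38.4 under both windows, any protein-coding TSS, the highest summit within 1 kb, and without genes with an opposite-strand TSS within 1 kb or interacting proteins. Over all protein-coding genes the median was 30.4 at 500 bp and 29.5 at 3 kb. For the highest summit within 1 kb it was 28.5, beside 36.9 for the proteasome genes. The exception among the tissue forms was Psmb10, which had 10.6 when its highest summit had to lie within 1 kb of the TSS, because its strongest summit is in intron 4. With a motif window of 500 bases before to 100 after the TSS, the NFE2L1/NFE2L2 letters occurred in 30.6% of proteasome promoters, beside 21.2% of all, and the NF-Y letters in 59.2%, beside 59.0%. Beside promoters with an interval, the difference for the NF-Y letters turned from -1.12 to 0.11 percentage points and that for the TATA box from -3.001 to 1.36.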
